A study of Mus musculus with 48 samples.

Results

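The level of 10 skeletal muscle genes was followed in RNA from 48 mouse tumors. The genes are Acta1, Ckm, Myh1, Myh2, Myh4, Tnnt3, Tnni2, Mylpf, Atp2a1 and Pvalb, taken by their GENCODE vM21 symbols, which makes 10 of the 55450 genes in the count table. All 10 had 1 gene identifier each and all 10 passed the filter on low counts in both experiments.

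The tumors were grown from B16-D5, a mouse melanoma line, placed under the flank skin of C57BL/6J (WT) or iNOS KO mice 8 days ahead of therapy. iNOS is the inducible nitric oxide synthase, encoded by Nos2. The first experiment holds 30 tumors of WT mice, 3 in each of 10 groups, which were untreated at 0 hours, or untreated, given control IgG or given anti-PD-1 at D0, D1 and D3. The second holds 18 tumors, 3 in each of 6 groups, from WT and KO mice that were untreated or given IgG or anti-PD-1, and the study places it at day 7. Mice arrived at 4 weeks of age and were kept for 2 weeks, and each antibody dose was 250 µg in 200 µL on Days 0 and 3. The same tumor line was given to both genotypes, so KO refers to the host alone. D0 is taken here as the 6-hour time of the study, because therapy began on day 0.

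Libraries held between 11625862 and 47687872 counts, so that a count of 0 allows up to 0.0688 to 0.197 CPM (3 counts, counting error only). CPM stands for counts scaled to a common library total after TMM adjustment, and the 2 experiments were normalized apart, so levels set across them are side by side only. Nos2 did not separate the genotypes, with 1.15 to 5.92 CPM in the 9 libraries labelled KO and 1.40 to 7.28 CPM in the 9 labelled WT of that experiment. Counts of deleted and remaining exons cannot be told apart in these values, and the tumor cells carry the gene in either host. Another 3 libraries of the second experiment stood apart by their counts on olfactory receptor genes, taken as a measure of counts outside expressed genes, at 669 to 2086 CPM beside 10.6 to 242 CPM in the other libraries. They are KO untreated replicate 1 and WT anti-PD-1 replicates 3 and 4. The members' median fold changes, the r between members and the highest Myh2 share are also given without them below.

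Skeletal muscle fibers shorten when myosin heads on thick filaments pull on actin in thin filaments. Calcium released from the sarcoplasmic reticulum binds to troponin on the thin filament and starts the contraction, and pumping the calcium back ends it. Fast fibers of the mouse use the myosin heavy chains of Myh4 (IIb), Myh1 (IIx) and Myh2 (IIa), together with fast forms of troponin and light chain, whereas slow fibers use Myh7. Melanoma cells are not muscle cells, and skin and muscle of the host lie next to a tumor grown under the skin.

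Of the thin filament, Acta1 encodes skeletal alpha-actin (chromosome 8, 123891769 to 123894751, minus strand of GRCm38). Tnnt3 and Tnni2 encode the fast forms of troponin T and troponin I and are neighbours on chromosome 7, at 142498836 to 142516009 and 142441808 to 142444410. Of the thick filament, the 3 heavy chain genes lie side by side on the plus strand of chromosome 11, with Myh2 from 67171027 to 67197517, Myh1 from 67200052 to 67224575 and Myh4 from 67238029 to 67260446. Mylpf encodes the fast regulatory light chain (chromosome 7, 127208890 to 127214298). Atp2a1 encodes the calcium pump SERCA1 (chromosome 7, 126445858 to 126463108), Pvalb the calcium buffer parvalbumin (chromosome 15, 78191114 to 78206400), and Ckm the muscle creatine kinase that restores ATP (chromosome 7, 19404776 to 19422841). Acta1, Ckm, Myh1, Myh2, Tnnt3 and Atp2a1 overlap a gene on the opposite strand, and the strand setting of the counting is not given in the sources used here. Of all 100-base windows of their transcripts, Myh1 shared 9.73%, Myh2 9.17% and Myh4 3.85% with another gene, mostly with each other or Myh8, so a part of their reads is uncertain. The other 7 members shared 0%.

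The upstream sequence of the 3 heavy chain genes is shown because these genes moved together over the libraries and yet in changing proportion. The 250 bases before the RefSeq start on GRCm38.p6 follow, 5′ to 3′ on the plus strand, with capitals on a run of 20 bases that the 3 genes share and on TATAAA on either strand.
Myh2 (chr11:67170777-67171026): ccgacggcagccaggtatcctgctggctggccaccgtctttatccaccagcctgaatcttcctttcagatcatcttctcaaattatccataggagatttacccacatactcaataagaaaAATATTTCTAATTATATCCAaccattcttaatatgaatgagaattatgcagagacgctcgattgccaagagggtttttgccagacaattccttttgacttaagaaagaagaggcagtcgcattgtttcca
Myh1 (chr11:67199852-67200101): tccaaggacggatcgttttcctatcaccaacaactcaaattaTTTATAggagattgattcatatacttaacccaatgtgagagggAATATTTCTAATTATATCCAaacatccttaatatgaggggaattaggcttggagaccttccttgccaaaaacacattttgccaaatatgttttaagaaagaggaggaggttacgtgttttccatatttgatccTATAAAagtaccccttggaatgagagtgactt
Myh4 (chr11:67237562-67237811): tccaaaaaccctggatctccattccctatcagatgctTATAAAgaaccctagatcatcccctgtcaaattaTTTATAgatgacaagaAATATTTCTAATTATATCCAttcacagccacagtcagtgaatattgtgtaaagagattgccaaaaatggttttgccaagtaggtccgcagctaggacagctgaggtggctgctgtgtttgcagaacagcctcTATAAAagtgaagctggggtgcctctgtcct
The shared run begins at -130 in Myh2, -165 in Myh1 and -163 in Myh4, counted from the RefSeq start. Of 32851 promoter windows of the same length in RefSeq, these 3 held the run.

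Acta1 is shown as the thin filament gene with a CArG box, a motif named for its sequence and bound by serum response factor. The 150 bases before its RefSeq start are given on the minus strand, with capitals on TATAAA and on the CArG box.
Acta1 (chr8:123894776-123894925): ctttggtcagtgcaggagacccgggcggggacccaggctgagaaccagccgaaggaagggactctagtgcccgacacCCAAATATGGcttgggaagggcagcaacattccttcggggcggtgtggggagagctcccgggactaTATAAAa
RefSeq promoters were matched for 8 of the 10 members, and those of Tnnt3 and Tnni2 were not used here. On both strands of the 250 bases, a CArG box was found in 2 of these 8 members (Acta1 and Myh4) beside 1.47% of all windows, and TATAAA in 3 of 8 (Acta1, Myh1 and Myh4) beside 12.4%. The E-box CANNTG, the motif of the MyoD family, was found in 5 of 8 members beside 66.2% of all windows, and a MEF2 site in 0 of 8 beside 0.508%. A match describes the letters only.

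The 10 genes together ranged from 3.62 to 8841 CPM in the first experiment and from 4.70 to 594 CPM in the second. Their sum was under 20 CPM in 22 of the 48 libraries and over 1000 CPM in 8. The largest share of all counts on the 10 genes, 0.901%, was in IgG D1 replicate 6. In 12 of the 16 groups the highest library was more than 10 times the lowest, and 11 groups held both a library under 20 CPM and a library over 100 CPM. In a bulk sample fewer muscle cells and less muscle RNA per cell cannot be told apart.

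**Figure D1:**
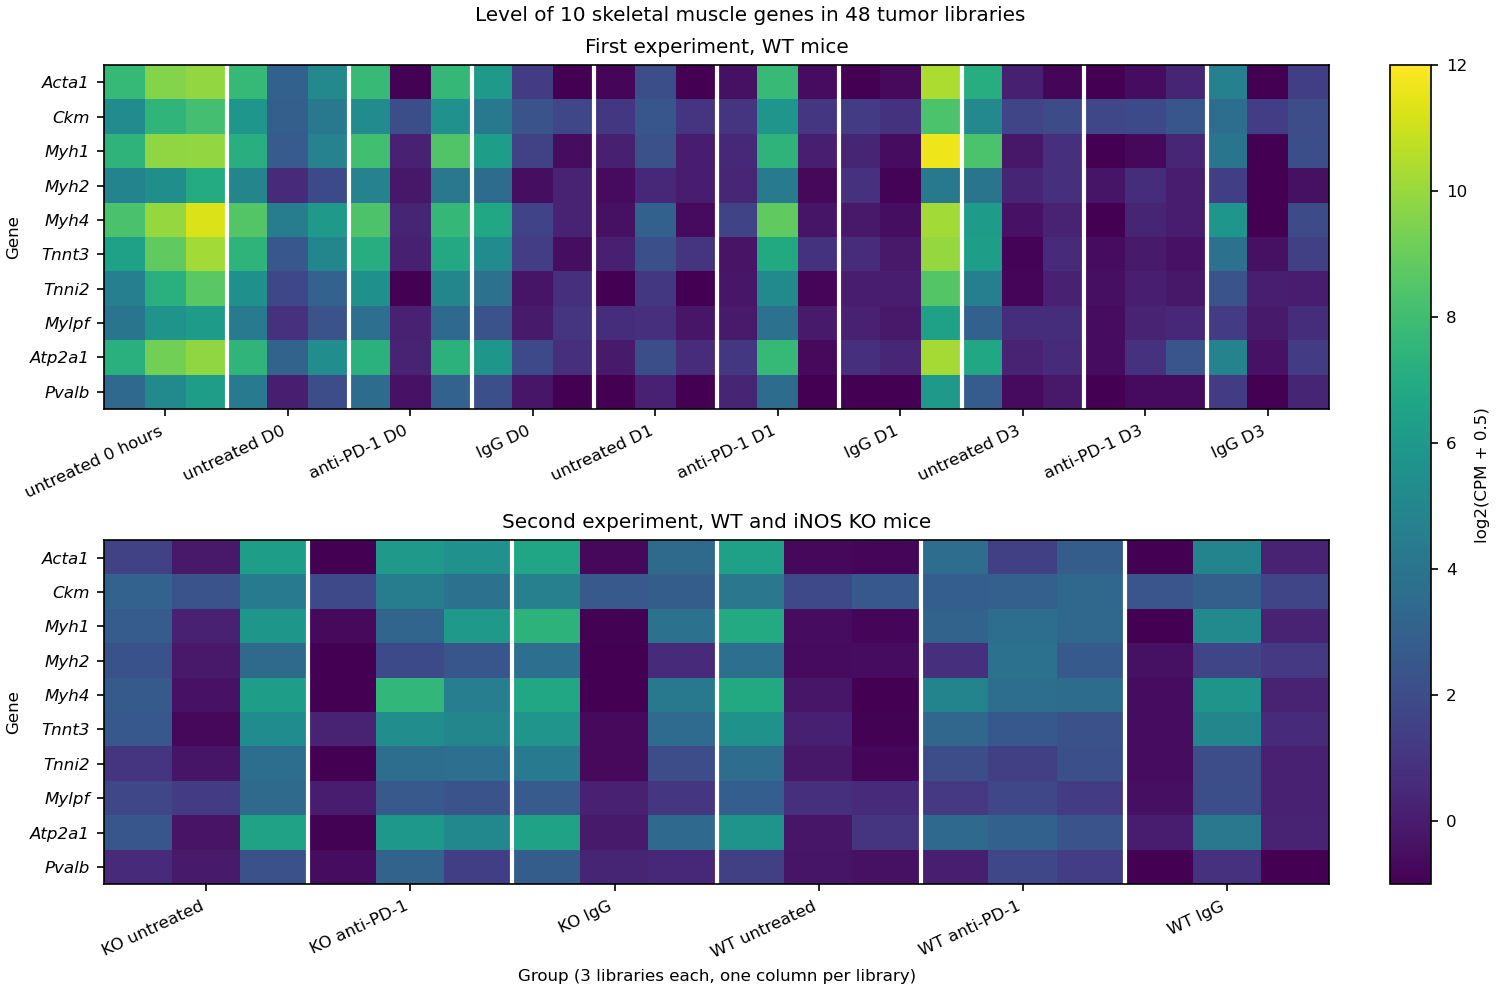
Heat map of the log2(CPM + 0.5) of the 10 genes (rows) in each library (columns, 3 per group, white lines between groups), with the first experiment above and the second below. Whole columns are bright or dark: IgG D1 replicate 6, with a sum of 8841 CPM, stands beside 2 libraries of its group at 7.92 and 4.02 CPM.

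The untreated 0-hour tumors had the highest median. Their sums were 1047, 4153 and 7518 CPM. The median over all 30 libraries of the first experiment was 19 CPM. Untreated D0 tumors had 1253, 62.2 and 234 CPM, anti-PD-1 D0 tumors 1236, 7.90 and 1139 CPM, and IgG D0 tumors 395, 17.9 and 8.71 CPM. The highest library was 20.1, 156 and 45.4 times the lowest in these 3 groups, so their ranges overlapped widely. At D1 the sums were 4.88, 32.9 and 5.45 CPM in untreated tumors, 9.58, 1311 and 4.73 CPM after anti-PD-1, and 7.92, 4.02 and 8841 CPM after IgG. At D3 they were 800.2, 6.96 and 10.8 CPM in untreated tumors, 4.05, 8.67 and 14.2 CPM after anti-PD-1, and 164, 3.62 and 20 CPM after IgG. Of the 6 groups at D1 and D3, 4 held a single library over 100 CPM and 2 held none.

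In the second experiment, the sums were 43, 9.42 and 399 CPM in KO untreated tumors, 4.70, 422 and 234 CPM in KO anti-PD-1 tumors and 594, 8.08 and 79.1 CPM in KO IgG tumors. They were 481, 6.92 and 8.59 CPM in WT untreated tumors and 6.33, 186 and 9.47 CPM in WT IgG tumors. WT anti-PD-1 tumors had 82.6, 70.1 and 60.6 CPM, the narrowest range of the 16 groups at 1.36-fold, and 2 of these 3 libraries are among those high in olfactory receptor counts. Ordered by the median of the members' mean log2 level, untreated 0-hour tumors came first and untreated D1 tumors last in the first experiment, and KO anti-PD-1 tumors first and WT untreated tumors last in the second. In all 14 pairs of neighbouring groups in these 2 orders the ranges of the 3 libraries overlapped.

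**Figure D2:**
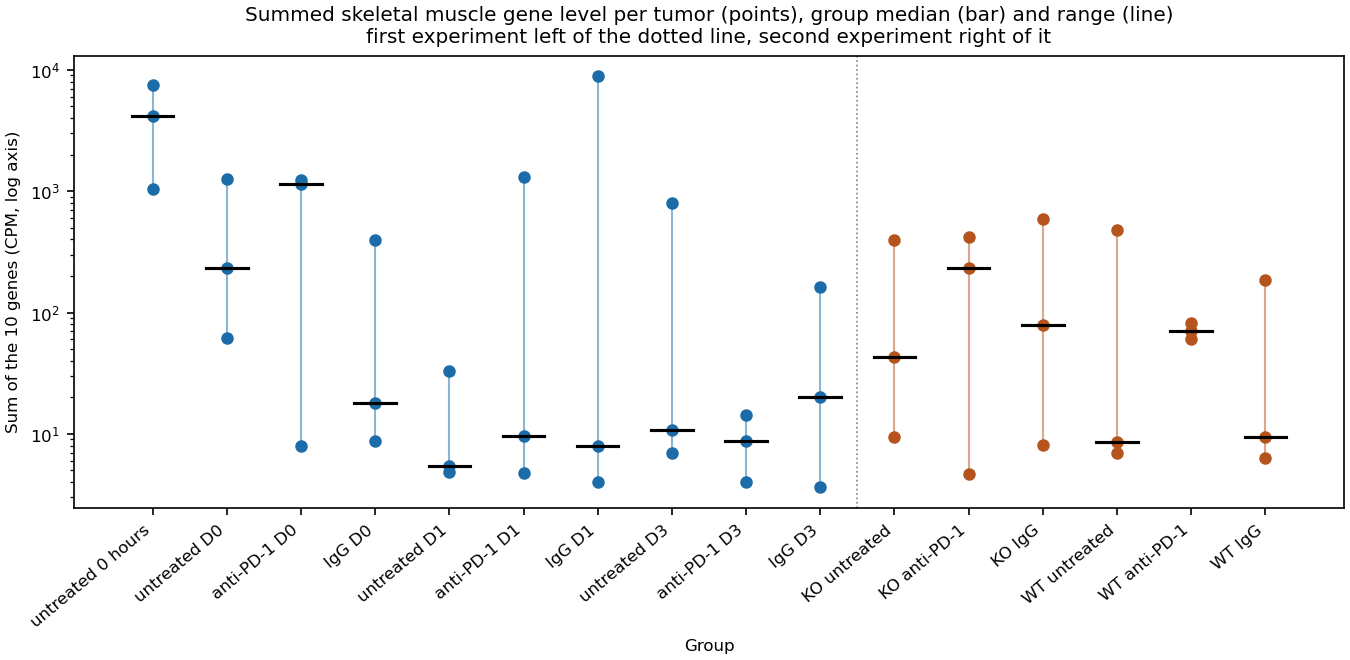
Summed CPM of the 10 genes on a log axis for each tumor (points), with the median (black bar) and range (line) of each group of 3, the first experiment in blue and the second in orange. The 3 untreated 0-hour tumors lie at 1047 to 7518 CPM, while most other groups reach from under 20 CPM to over 100 CPM.

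Thin filament genes followed the sums. Acta1 had 211, 757 and 960.5 CPM in the untreated 0-hour tumors, 210, 7.80 and 34.45 CPM in untreated D0 tumors, 0.0809, 3.84 and 0 CPM in untreated D1 tumors and 138.5, 0.610 and 0.0829 CPM in untreated D3 tumors. After anti-PD-1 it had 212.5, 0.0314 and 199 CPM at D0, 0.260, 217 and 0.175 CPM at D1 and 0, 0.168 and 0.761 CPM at D3. After IgG it had 65.35, 1.87 and 0 CPM at D0, 0, 0.121 and 1360.4 CPM at D1 and 25.8, 0 and 2.20 CPM at D3. Only the 0-hour group held 3 libraries above 200 CPM, while the highest library at D3 had 138.5 CPM. In the second experiment Acta1 was highest in KO IgG replicate 1 (102 CPM) and WT untreated replicate 1 (84.8 CPM) and had 0 counts in KO anti-PD-1 replicate 1 and WT IgG replicate 1. Tnnt3 ranged from 0.0508 to 1160 CPM in the first experiment and from 0.0289 to 54.7 CPM in the second, and Tnni2 from 0 to 406 CPM and from 0 to 19.9 CPM.

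Among the thick filament genes, Myh4 had 305, 982 and 2554 CPM in the untreated 0-hour tumors and Myh1 had 177, 904 and 958 CPM. The highest level of any member in any library was that of Myh1 in IgG D1 replicate 6, at 3248 CPM, where Myh4 had 1156 CPM and Myh2 18.9 CPM. In the other 2 libraries of that group Myh1 had 0.771 and 0.170 CPM. Myh2 was the lowest of the heavy chain genes, with a median of 1.05 CPM and a highest value of 126 CPM in the first experiment. Mylpf had 15.85, 52.4 and 70.6 CPM in the 0-hour tumors and was never at 0 counts in the 48 libraries.

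Of the calcium and energy genes, Atp2a1 had 152, 591 and 928 CPM in the untreated 0-hour tumors and 0.458, 3.78 and 1.05 CPM in the untreated D1 tumors. Pvalb had the lowest median, 0.597 CPM in the first experiment, and 0 counts in 8 of its 30 libraries. Ckm kept the highest floor in CPM, with a lowest value of 1.36 CPM in the first experiment and 2.74 CPM in the second. Mylpf, a contractile gene, kept one of 0.184 and 0.211 CPM, and both genes had more than 3 counts in every library. Per kb of exon neither was always ahead. Mylpf had 38.6 and Ckm 20.9 counts per kb in untreated D1 replicate 1, and 19.8 and 41.5 in anti-PD-1 D0 replicate 3. In the 7 libraries in which Acta1 had 0 counts, Ckm had 1.42 to 4.79 CPM and Mylpf 0.184 to 1.51 CPM. Whether reads of the gene that overlaps Ckm enter the floor of Ckm was not tested.

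Per kb of exon, Acta1 was the most abundant member, with a mean of 95.7 CPM per kb over the 30 libraries of the first experiment. Tnnt3 came next at 71.4 CPM per kb, ahead of Atp2a1, Myh4 and Myh1 at 37.2, 37.1 and 35.1 CPM per kb. Tnni2 had 26.1, Ckm 13.3, Mylpf 9.92, Pvalb 8.31 and Myh2 1.66 CPM per kb. In the second experiment the means ran from 15.8 CPM per kb for Acta1 to 0.600 for Myh2. Every member's highest library was far above its median, so these means are set by few libraries.

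On the log2 scale, the spread between tumors of one group was among the largest of all genes. The within-group SD of log2(CPM + 0.5) was 3.74 for Acta1 in the first experiment, and none of the 26848 genes tested had a larger one. Myh4 had the largest of the 30837 genes tested in the second, at 3.58. The median gene had an SD of 0.365 and 0.429. In the first experiment the 10 members ranged from 1.77 (Mylpf, with 73 genes above it) to that of Acta1, and in the second from 1.01 (Ckm, with 748 genes above it) to that of Myh4. By edgeR's biological CV, its own estimate of a gene's variation between tumors, the members ranked lower. They lay at percentiles 66.9 (Mylpf) to 88.7 (Acta1) of the genes tested in the first experiment. In the second they lay at percentiles 44.8 (Ckm) to 75.1 (Myh4), so the rank depends on the measure.

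Along the untreated time course, the 10 genes were lower at every later time than at 0 hours, and 0 of 10 passed the test at any of them. The median log2 fold change of the members against 0 hours was -2.89 at D0, -8.22 at D1 and -3.86 at D3, beside -0.018, -0.036 and 0.0 over all 26848 genes tested. The D3 comparison belonged to the design, and those at D0 and D1 were added after the values had been seen. On the log2 scale, Acta1 was at -2.94 at D0 (SE 2.61, edgeR adjusted p = 0.904), -8.96 at D1 (SE 3.48, edgeR adjusted p = 0.613) and -3.79 at D3 (SE 2.71, edgeR adjusted p = 0.832). Ckm, with a smaller spread, was at -5.96 at D1 (SE 1.77, edgeR adjusted p = 0.411), the lowest adjusted p of any member there. In each of the 3 comparisons edgeR called 0.0% of all genes. At an unadjusted p under 0.05 there were 0 members at D0, 10 at D1 and 2 at D3, beside 6.92%, 6.85% and 6.89% of all genes.

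Without a test, the 3 untreated D1 tumors were below all 3 tumors at 0 hours in 10 of 10 members, where 4.28% of all genes were lower with no overlap. At D3 this held for 9 of 10 members (4.32% of all genes), with Myh1 as the exception because untreated D3 replicate 1 had 318 CPM. At D0 it held for 2 of 10 (3.56% of all genes). DESeq2's Wald test called 8 of 10 members at D1, all but Acta1 and Pvalb, and 0 at D0 and D3. It called 240 genes at D1 in all (0.894% of all genes). Where DESeq2 called 0 members, its share over all genes is not given here. Leaving out 1 library at a time, the median stayed between -9.89 and -7.14 at D1, between -9.21 (without untreated D3 replicate 1) and -3.33 at D3, and between -4.96 and -1.97 at D0. Among markers of other tissues, those of keratinocytes had the lowest median log2 fold change at all 3 times (-6.44, -10.14 and -9.30). Of 8 keratinocyte markers, 8 were lower at each later time with an unadjusted p under 0.05 and 0 were called. Their sum was 21.1 to 4878 CPM at 0 hours, 12.3 to 30.4 CPM at D0, 3.28 to 5.34 CPM at D1 and 3.56 to 4.78 CPM at D3. Of 8 adipocyte markers, 8 were lower at D0 (median log2 fold change -3.52), 7 with an unadjusted p under 0.05 and 0 called. At D1 8 were lower (median -0.618) and at D3 6 (median -0.784), with 0 at an unadjusted p under 0.05. Their sum was 18.2 to 438 CPM at 0 hours, 6.93 to 22.8 CPM at D0, 22.6 to 140 CPM at D1 and 16.4 to 151 CPM at D3, and none of the 8 was at 0 in all 3 libraries of a group. Fibroblast markers were lower in 6 of 6 at D0, D1 and D3 (medians -1.02, -0.304 and -1.22), with an unadjusted p under 0.05 in 0, 0 and 2. Smooth muscle markers were lower in 5, 6 and 6 of 6, with 2, 0 and 2. Endothelial markers were lower in 6, 5 and 5 of 6, leukocyte markers in 6, 3 and 5 and melanoma markers in 1, 6 and 1. None of these 3 lists had an unadjusted p under 0.05. The part of these lists in the result was not tested.

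The comparisons of anti-PD-1 with IgG ask whether the treatment, beyond the antibody dose, went with a different level of these genes. At D0 all 10 members were higher after anti-PD-1, with a median log2 fold change of 2.31 beside -0.07 over all genes, and 0 of 10 were called (0.0% of all genes). Acta1 was higher by 2.61 on the log2 scale (SE 2.58, edgeR adjusted p = 1), and anti-PD-1 replicate 3 at 0.0314 CPM lay among the IgG tumors. At D1 the median was -2.55 beside -0.011 over all genes, with 9 of 10 members lower, and at D3 it was -2.74 beside 0.002 with 10 of 10 lower. Both called 0 of 10 members and 0.0% of all genes, and 0 members had an unadjusted p under 0.05 at D0, D1 or D3, beside 4.38%, 3.64% and 2.14% of all genes. No member separated the groups without overlap, as 7.7%, 6.49% and 8.32% of all genes did at D0, D1 and D3. At D1 the direction rested on IgG replicate 6, since the median was 5.87 without it, and it was -8.32 without anti-PD-1 replicate 4. The D0 median was 5.42 without IgG replicate 1, and the D3 median was -1.17 without IgG replicate 2. DESeq2 called 0 members in these 3 comparisons.

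IgG against untreated tumors at D1 gave the median farthest from 0 among the planned comparisons, and it rested on 1 tumor. The median log2 fold change was 7.25 beside 0.039 over all genes, with 10 of 10 members higher, and 9 of 10 had an unadjusted p under 0.05 (5.43% of all genes), but 0 were called by edgeR (0.0% of all genes). Acta1 was higher by 8.45 (SE 3.41, edgeR adjusted p = 0.859). DESeq2 called 1 member, Myh1, among 25 genes (0.0931% of all genes). Without IgG D1 replicate 6 the median was -1.10 and that of Acta1 was -4.28, so both turned direction. That library also held 751 CPM of keratinocyte markers, where the other 2 IgG D1 tumors had 5.99 and 4.63 CPM, and the part of skin in its level was not tested. The median was -1.90 at D0 beside 0.099 over all genes and -2.02 at D3 beside -0.029, with 10 of 10 members lower at each. At both times edgeR called 0 members (0.0% of all genes) and DESeq2 called 0. No member had an unadjusted p under 0.05 from edgeR (5.42% and 2.64% of all genes). At D0 the median was -0.22 without untreated replicate 1 and -5.34 without IgG replicate 1. At D3 it turned to 2.63 without untreated replicate 1 and was -4.11 without IgG replicate 2.

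In the second experiment, anti-PD-1 against IgG gave a median log2 fold change of 0.37 in WT mice and 0.08 in KO mice, beside 0.682 and 0.0 over all genes. IgG against untreated tumors gave -1.31 in WT and 0.51 in KO mice, beside 0.139 and -0.447. In none of the 4 did edgeR or DESeq2 call a member, 0 members had an unadjusted p under 0.05 (16.3%, 1.94%, 7.83% and 15.6% of all genes), and edgeR called 0.0% of all genes in the first 3 and 0.188% for IgG against untreated in KO mice. All 4 medians turned direction when 1 of the 6 libraries was left out, with ranges of -0.19 to 3.54, -0.76 to 2.12, -4.94 to 3.00 and -1.57 to 3.12 in that order. The WT median of anti-PD-1 against IgG turned without WT IgG replicate 1 or 3, and the KO one without KO IgG replicate 2 or 3 or KO anti-PD-1 replicate 2 or 3. The IgG against untreated medians turned without WT untreated replicate 1, and without KO IgG replicate 1 or KO untreated replicate 2. Without the 3 libraries high in olfactory receptor counts the 4 medians were 0.31, 0.07, -1.32 and 0.07, the first of them with WT anti-PD-1 replicate 2 as the 1 library of its group, assumed to vary like the other groups. The medians and shares over all genes are not given without those 3 libraries. Within a genotype, as within a time, both comparisons use the same IgG tumors, so their values are not independent.

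The comparisons of the libraries labelled KO with those labelled WT ask whether loss of iNOS in the host went with the level of the muscle genes. The median log2 fold change was 0.22 in untreated, 1.75 in IgG and 1.28 in anti-PD-1 tumors, beside 0.486, -0.14 and -0.913 over all genes. No member was called in the 3 comparisons by edgeR or DESeq2, where edgeR called 0.587%, 0.0% and 0.0% of all genes, and 0 members had an unadjusted p under 0.05, beside 16.5%, 6.26% and 32.3% of all genes. In untreated tumors the median turned direction without KO replicate 4, WT replicate 2 or WT replicate 3, in a range of -2.49 to 5.04. After IgG 10 of 10 members were higher in KO, with a median of -0.63 without KO IgG replicate 1 and of 5.54 without WT IgG replicate 2. After anti-PD-1 9 of 10 were higher, with Myh2 as the exception at -1.32 (SE 1.63, edgeR adjusted p = 0.562), and the median was 0.61 without KO anti-PD-1 replicate 2. Acta1 there had 0, 61.95 and 46.9 CPM in KO and 12.2, 2.30 and 6.69 CPM in WT mice, higher by 2.33 in KO (SE 2.12, edgeR adjusted p = 0.423) and by 1.61 without the libraries high in olfactory receptor counts, which leaves 1 WT anti-PD-1 tumor. The groups overlapped, as the lowest of the 6 tumors was from a KO mouse. Without those libraries the medians were 0.5 in untreated, 1.79 in IgG and 1.41 in anti-PD-1 tumors, the last against that 1 WT tumor. The medians and shares over all genes come from the fit with those libraries in and are not given without them. Differences between these contrasts were tested too, in 8 pairs over times or genotypes, and edgeR's lowest adjusted p of a member was 0.59.

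**Figure D3:**
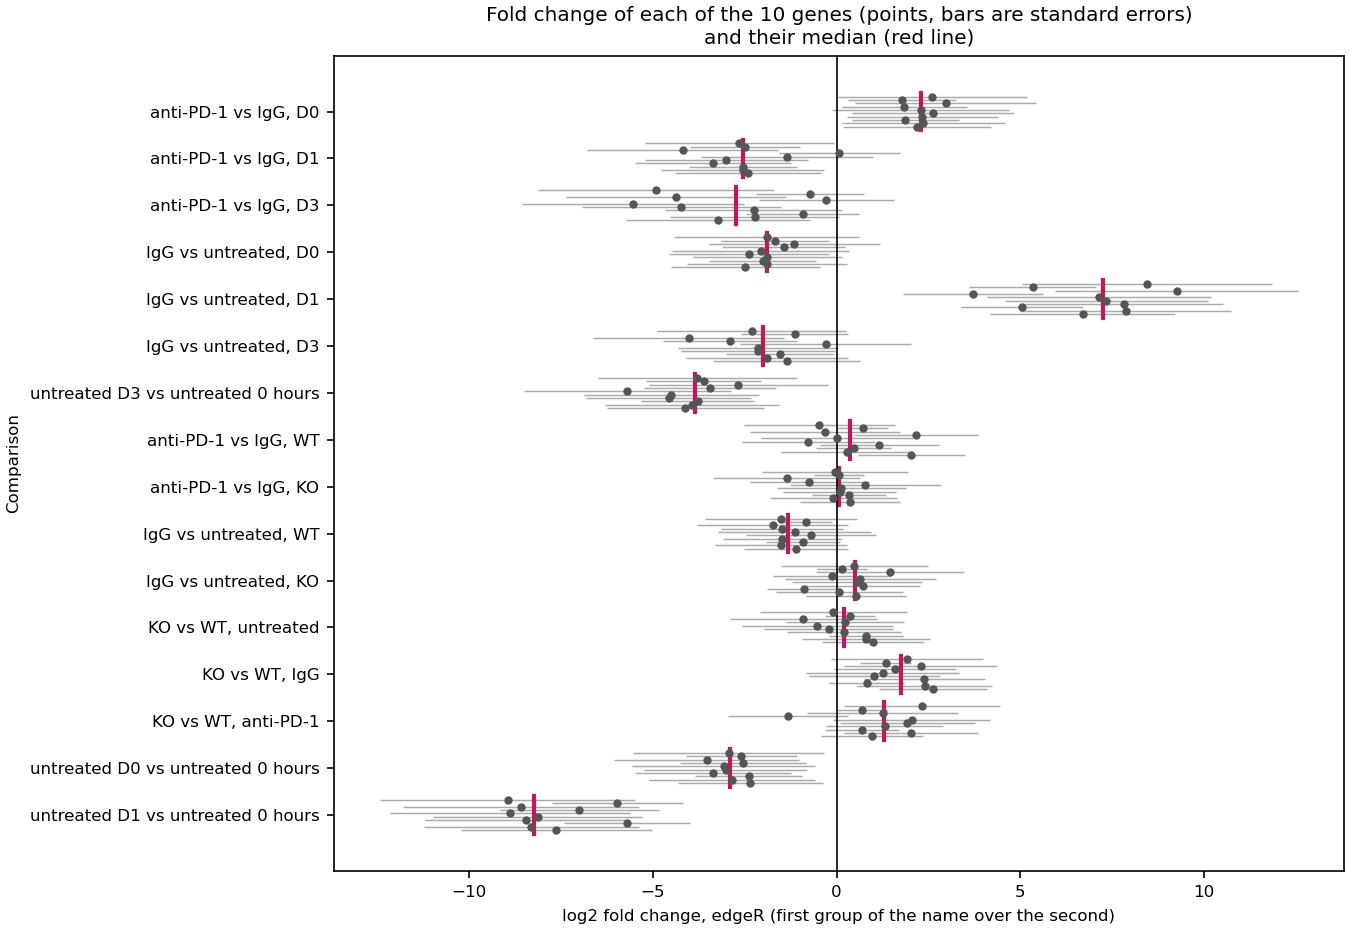
Log2 fold change of each of the 10 genes (points, with bars of 1 standard error from edgeR) in 16 comparisons (rows), with their median as a red line. The medians farthest from 0 are those of IgG against untreated at D1 (7.25) and untreated D1 against 0 hours (-8.22), and 0 of 10 genes passed an adjusted p of 0.05 in any row.

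The members varied together. Over the 30 libraries of the first experiment, Pearson's r of log2(CPM + 0.5) between 2 members was 0.935 to 0.989 over the 45 pairs, with a median of 0.972. In the 18 libraries of the second it was 0.771 to 0.982, with a median of 0.887, and 0.781 to 0.988 with a median of 0.915 in the 15 libraries left without the 3 high in olfactory receptor counts. Each library gives all genes of a pair the same depth and the same dissected tissue. Against the mean of the other 9 members, the lowest r in the second experiment were those of Myh2 (0.846), Pvalb (0.861) and Ckm (0.904).

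Ratios between members show where they parted. In the 25 libraries with at least 20 counts on each member, the count ratio of Tnnt3 to Atp2a1 had the smallest SD on the log2 scale of all 45 pairs (0.439), with a range of 0.437 to 1.75. Ckm to Mylpf was next (SD 0.450, range 1.83 to 6.75), and Acta1 to Atp2a1 ranged from 0.294 to 1.65. By contrast Myh1 to Myh4, genes side by side on the chromosome, varied from 0.0457 to 4.35, a 95.2-fold range and the 40th of the 45 pairs in order of that SD.

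Of the counts on the 3 heavy chain genes, Myh4 took a median of 54.4% over these 25 libraries, Myh1 38% and Myh2 3.97%. Myh4 was ahead of Myh1 in 18 libraries and behind it in 7. KO anti-PD-1 replicate 2 had 94.1% Myh4 (95% Wilson interval 93.5 to 94.7%) and 4.30% Myh1 (3.84 to 4.81%) of 6721 counts. KO anti-PD-1 replicate 3, a tumor of the same group, had 25.6% Myh4 (24.1 to 27%) and 68.7% Myh1 (67.2 to 70.2%) of 3482 counts. The shares of these 2 tumors differed by far more than counting error. The largest share of Myh1 was 78.1% (77.4 to 78.7%) in untreated D3 replicate 1, followed by 73.4% (73.2 to 73.7%) in IgG D1 replicate 6. The 3 untreated 0-hour tumors lay between, at 34.7%, 46.9% and 26.3% Myh1. Among these 25 libraries, Myh2 took its largest shares, 36.2%, 26% and 22%, in the 3 high in olfactory receptor counts. Its highest share in the rest of the 25 was 7.34%. Libraries outside the 25 had fewer heavy chain counts, and some had larger shares. Myh2 took 53.1% (43.3 to 62.6%) of 98 counts in IgG D1 replicate 2 and 54.8% (44.1 to 65%) of 84 in WT IgG replicate 3. Others were low, with 3.89% of 180 counts in IgG D0 replicate 2 and 3.21% of 280 in IgG D3 replicate 5. The intervals cover counting error only and not the reads that the heavy chain genes share.

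**Figure D4:**
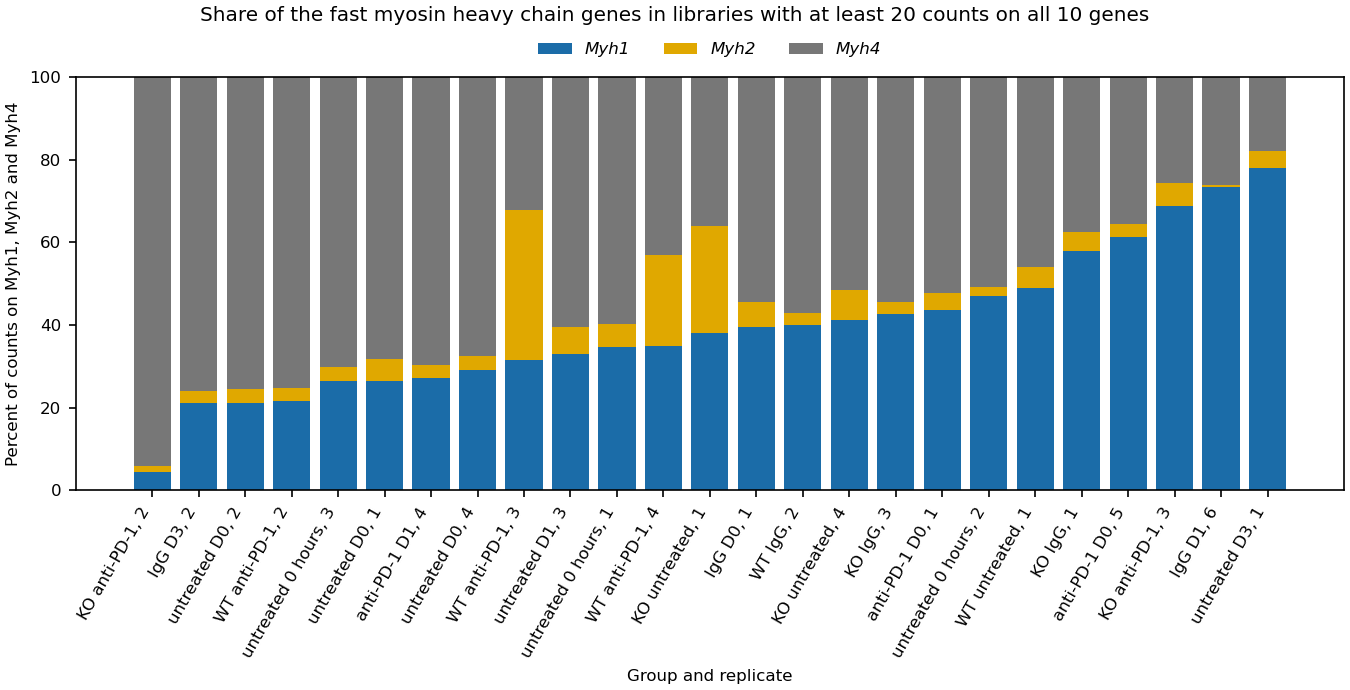
Percent of counts on Myh1 (blue), Myh2 (yellow) and Myh4 (grey) in the 25 libraries with at least 20 counts on all 10 genes, ordered by the share of Myh1. The share of Myh1 runs from 4.30% to 78.1%, and 3 bars have a Myh2 share over 20%.

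Genes outside the 10 were ranked by the lower of their 2 r values with the members' mean level. The closest was Neb, which encodes the thin filament ruler nebulin (r = 0.984 over 30 and 0.979 over 18 libraries). It was followed by Myl1, a fast essential light chain, Xirp2, Ttn, which encodes titin, Cmya5, Trdn, which encodes triadin of the calcium release unit, Mybpc2, Tnnc2, the fast troponin C, Tcap and Actn3, the alpha-actinin of fast fibers (r = 0.978 and 0.927). Of 25456 genes tested in both experiments, 22 had an r of at least 0.9 in both, and 8 of these were members. A member is itself part of that mean, which raises its r. Against the mean of the other 9 members, the lowest r of these 8 was 0.904 (Ckm, second experiment). The other 14 of the 22 hold 11 genes of the lists used here. Ttn had the highest level, from 4.07 to 10010.5 CPM in the first experiment.

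Other parts of the muscle program followed to different degrees. Of 22 other sarcomere genes, 19 had an r over 0.9 with the members' mean in the first experiment and 10 in the second, and their sum ranged from 171 to 14161 CPM and from 182 to 1382 CPM. Trim63, a ubiquitin ligase, had an r of 0.31 and -0.07. Of 15 genes of calcium release and excitation, 7 and 1 had an r over 0.9, with Ryr1, the release channel, at 0.906 and 0.732. Of 13 genes of energy use, 3 and 0 did, with myoglobin (Mb) at 0.964 in the first experiment. Pygm and Eno3 had medians of 84.1 and 64.0 CPM there, so they were present where the members were near 0.

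Slow-fiber and regulatory genes were low, and some of them followed the members in the first experiment. The r of the mean level with the members was 0.751 and 0.198 for the slow-fiber list, and 0.662 and 0.154 for the 8 myogenic regulators and developmental myosins. The 8 slow-fiber genes summed to 1.34 to 19.8 CPM in the first experiment, where Myh7, the slow heavy chain, reached at most 1.13 CPM (r = -0.354). In the second they reached 42.8 CPM, in WT anti-PD-1 replicate 3, which is high in olfactory receptor counts. Myoz2 and Csrp3 followed the members with r of 0.937 and 0.882 in the first experiment. Pax7 and Myf5, which mark muscle stem cells and myoblasts, had medians of 0.179 and 0 CPM, and Myf5 was at 3 counts or fewer in 23 of 30 libraries. Of the same list Myf6, a regulator of fibers, had an r of 0.850 and 0.275 at up to 2.39 CPM in the first experiment, and Myh8, a perinatal myosin, 0.695 and 0.262 at up to 33.2 CPM. The mean level of the 8 genes of the neuromuscular junction had an r of 0.683 and 0.08 with the members. Gene by gene, r was 0.09 to 0.72 in the first experiment and -0.07 to 0.21 in the second. Their highest gene, Rapsn, lay between 15.4 and 61 CPM in the first. None of the 127 other genes on the lists was called in the 16 comparisons, with a lowest adjusted p of 0.123 from edgeR.

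Among markers of other tissues, those of keratinocytes moved with the members, and the r of the other lists was weaker or moved with few libraries. The mean log2 level of 8 keratinocyte markers had an r of 0.833 with that of the members over 30 libraries and 0.668 over 18, and 0.790 and 0.622 without the 2 libraries farthest from the median. Within groups r was 0.742 and 0.725. KO untreated replicate 1 and WT anti-PD-1 replicates 3 and 4, high in olfactory receptor counts, had 12.2, 31 and 23.8 CPM of these markers. The median of the 18 libraries was 5.02 CPM, and r without those 3 was not computed. Krt5, a keratin of the basal layer, reached 1124 CPM and Krt10, a keratin of upper layers, 1399 CPM, both in untreated 0-hour replicate 3, where the members' sum was 7518 CPM. The relation was not fixed, since untreated D3 replicate 1 had 800.2 CPM of the members and 3.68 CPM of the keratinocyte markers, 217 times less. Lor was at 0 in all 3 libraries of the anti-PD-1 D3 and KO anti-PD-1 groups, and Krt15 in those of IgG D3. Both lists come from the same libraries, and the part of skin in the members' level was not tested. The r of the 6 melanoma markers was 0.019 and 0.066, and 0.45 and 0.075 without the 2 farthest libraries, at sums of 8893 to 19115 CPM in the first experiment. For the 8 adipocyte markers it was -0.08 and 0.201, for the 7 cardiac markers -0.45 and -0.055, for the 6 smooth muscle markers 0.182 and -0.122, for endothelium 0.128 and -0.21, for fibroblasts -0.054 and -0.366 and for leukocytes 0.056 and -0.369. Without the 2 farthest libraries of the first experiment, r was -0.394 for adipocyte, -0.682 for cardiac, -0.025 for smooth muscle, 0.029 for endothelial, -0.399 for fibroblast and -0.192 for leukocyte markers, so these values rest in part on those libraries. The members' mean level had an r of 0.183 and -0.025 with the log2 total count of the library, and of -0.504 and 0.055 with its log2 olfactory receptor CPM, whose part in the level was not tested.

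**Figure D5:**
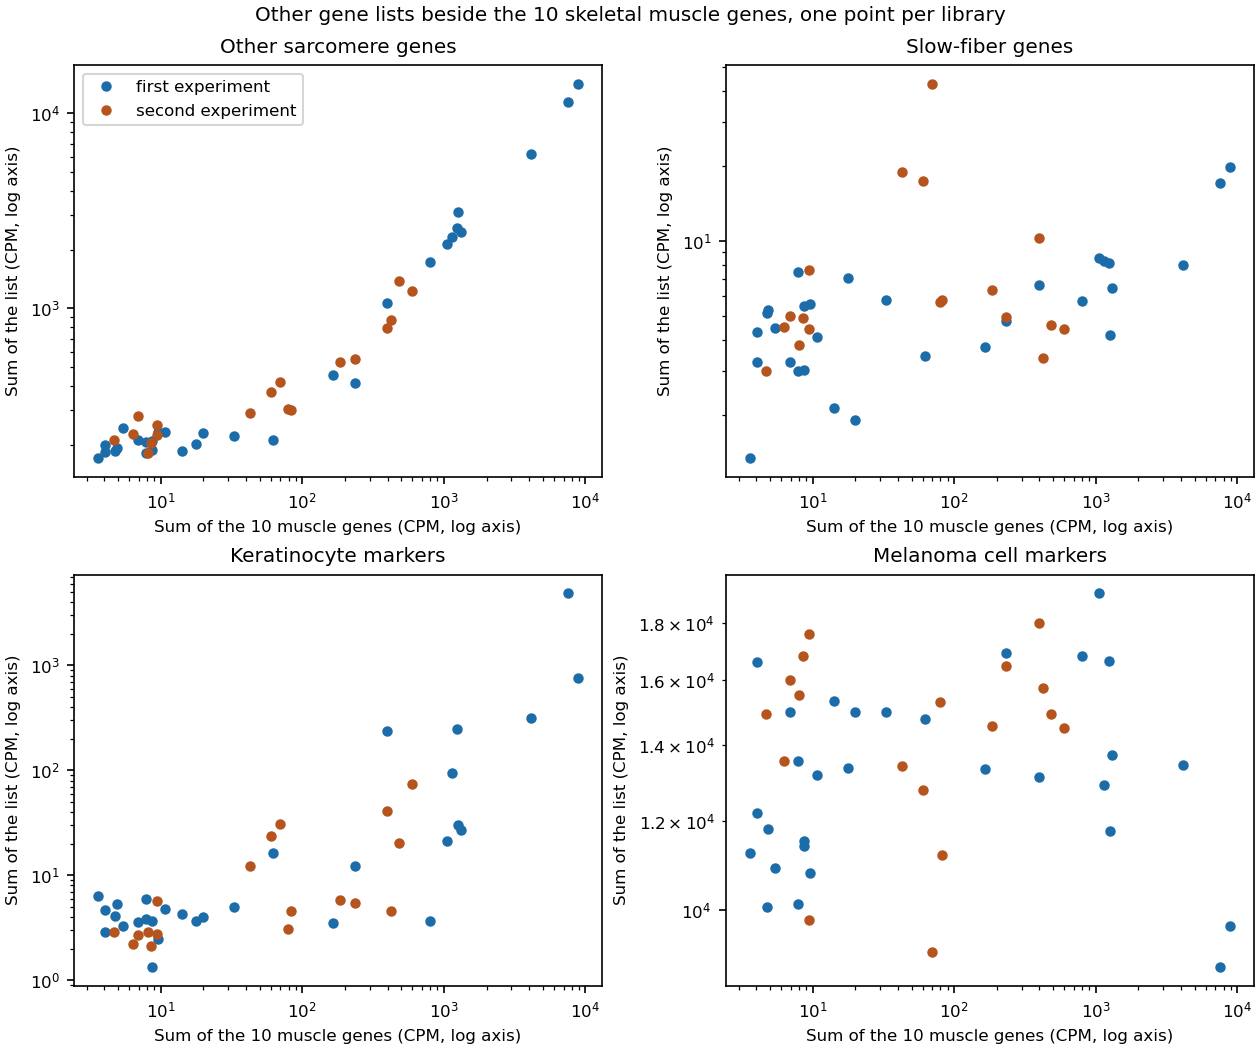
Sum of 4 other gene lists against the sum of the 10 members, in CPM on log axes, with a point per library (first experiment blue, second orange). The other sarcomere genes rise with the members (r = 0.988 and 0.968), keratinocyte markers do so with more scatter (0.833 and 0.668), and melanoma markers stay between 8893 and 19115 CPM.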

How the data were processed

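RNA-seq libraries of 48 tumors were made with a strand-specific kit and sequenced by the authors. Per the labels and the study's methods, reads were trimmed with cutadapt 1.8.1, aligned to mm10 with STAR 2.7.7a and quantified with RSEM 1.3.0 on GENCODE vM21. The values deposited by the authors are whole-number counts per gene, and the name of the table refers to another counter, so the tool behind the counts is uncertain. All 55450 gene identifiers matched GENCODE vM21.

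Groups and replicate numbers were taken from sample titles. The treatment field equals the title's treatment in 14 of 48 samples, and the genotype field reads WT in all 48, including those titled KO. Replicates are treated as separate tumors. P-values measure the spread between these samples. No pair of libraries of a group agreed within sampling noise (chi-square per gene 18.2 to 479).

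Each experiment was fitted apart with edgeR 4.0.16 in R 4.3.3 (TMM, filterByExpr with a minimum count of 10, quasi-likelihood F-test, Benjamini-Hochberg adjustment over all genes, threshold 0.05), with 20 and 12 residual degrees of freedom. The fit of the second experiment was run on counts simulated from its own means, spread and library totals. That of the first experiment was not, and groups with a single library far above the others were not simulated. Levels are TMM-adjusted CPM, and log2 levels use a pseudocount of 0.5 CPM. Alternatives were DESeq2 1.42.0, its size factors, no filter, only the compared groups, a replicate block and leaving out each library. Leaving out the 3 libraries highest in olfactory receptor counts was added after seeing the data, as were the comparisons of untreated D0 and D1 with 0 hours. The members and gene lists were chosen with earlier results of these data known. Named genes are the members, the 10 genes most like them and up to 4 of each list by mean level, while other listed genes that are named were chosen after their values were seen. Same-numbered libraries did not deviate together (median r -0.027 over 65 pairs and -0.019 over 36 pairs), so the numbers were not used as pairs. Plots were drawn with matplotlib 3.10.9, and intervals came from scipy 1.17.1 in Python 3.11.15. One listed gene is not reported here by name.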

Additional observations from a re-analysis of the deposited data

How the results depend on the processing

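Of 183 alternative counts of members called over the 16 comparisons, 171 stayed at 0 and 12 were higher. Without the filter on low counts, edgeR called 9 members for IgG against untreated at D1 (0.418% of all genes), 2 for untreated D3 against 0 hours (0.805%) and 10 for untreated D1 against 0 hours (0.82%). In the second experiment it then called 1 for anti-PD-1 against IgG in WT (1.92%) and 1 in KO mice (0.152%), 6 and 1 for IgG against untreated in WT (1.3%) and KO mice (2.66%), and 2, 9 and 6 for KO against WT in untreated (2.63%), IgG (0.535%) and anti-PD-1 tumors (5.52%). The unfiltered fits tested 49294 and 51257 genes, and the cause was not tested. DESeq2 called 1 member for IgG against untreated at D1 (0.0931% of all genes) and 8 for untreated D1 against 0 hours (0.894%). Of the 183 alternative medians, 167 moved by less than the median within-group SD of the members (2.92 and 2.47 on the log2 scale). That limit is wide, so the 167 include medians that turned direction. One of them is anti-PD-1 against IgG at D1, which went from -2.55 to 0.09 with a replicate block. Leaving out 1 library at a time, the log2 fold change of Acta1 for IgG against untreated at D1 ranged from -4.28, without IgG D1 replicate 6, to 13.37. With a replicate block edgeR called 0 members in each comparison. Where an alternative called 0 members, its share over all genes is not given here. With that block 3 medians turned direction. They were 0.09 for anti-PD-1 against IgG at D1, 1.11 for IgG against untreated at D3 and -1.27 for untreated KO against WT. With only the compared groups in the fit, Acta1 and Pvalb did not pass the filter for IgG against untreated at D1, nor did Pvalb for anti-PD-1 against IgG at D3, and they have no value there. A pseudocount of 0.1 CPM raised the median within-group SD of the members from 2.92 to 3.40 and from 2.47 to 3.14. It does not apply to shares of counts.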
